A study of Danio rerio with 4 samples.

Results

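The enteric neuron genes described here are 10 genes that mark or build the nerve cells of the gut wall, among them phox2a, ret, hand2, elavl3, elavl4, uchl1, snap25a, snap25b and gap43. They were chosen by name, and the count table holds all 10 among its 14781 genes. The study sequenced polyadenylated RNA from the intact intestine of adult zebrafish (Danio rerio) and compared 2 irf8 heterozygotes with 2 irf8 homozygous mutants. All 4 fish carry the st95 allele of irf8, which encodes a transcription factor needed for macrophage development. The heterozygotes, which keep 1 unmutated copy, are therefore the reference, and no fish without the allele was analysed here. The design text describes separate animals, untreated, with no age beyond adult. The fish are called heterozygote 1 and 2 and homozygote 1 and 2, after the numbers in the labels. The comparison asks which gut transcripts differ when both copies of irf8 carry the mutation.

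Enteric neurons descend from neural crest cells that migrate into and along the gut and form nerve networks between and beneath its muscle layers. Hand2 is a transcription factor that these precursors need, and Ret is the receptor tyrosine kinase through which the ligand GDNF drives their survival, division and migration. Mature neurons carry the RNA-binding Hu proteins (Elavl3 and Elavl4), the ubiquitin hydrolase Uchl1, the growth-cone protein Gap43 and the membrane-fusion protein Snap25. In mice, macrophages of the gut muscle layer exchange signals with these neurons.

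Library totals ranged from 6350840 to 10391963 counts, and a library in which a gene has 0 counts still allows up to 3 counts, or 0.277 to 0.512 CPM (counts scaled to the library size, here with the TMM method) depending on the library. Intestinal epithelium genes, the check of the labelled tissue, were present in all libraries (10 of 10 with counts), at summed levels of 101394, 24353, 60564 and 55637 CPM in heterozygote 1, heterozygote 2, homozygote 1 and homozygote 2. Heterozygote 2 stood apart from the other libraries by its pancreas transcripts, which are given below, and tested members are also given without it. The targeted gene, irf8, was at 5.12 and 5.47 CPM in the heterozygotes and at 3.70 and 2.31 CPM in the homozygotes, with an edgeR log2 fold change of -0.82 ± 0.58 (SE, n = 2 per group, adjusted p = 0.729).

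The data show enteric neuron transcripts at low levels. For the 10 genes summed, animals of the same genotype differed more than the genotypes did. Most of that sum came from ret and uchl1, whose genotypes did not overlap and differed in opposite directions, with neither gene called (given below). The 10 genes together had 79 and 277 counts in heterozygotes 1 and 2, and 184 and 122 counts in homozygotes 1 and 2. That was 13.5 and 30.3 CPM in the heterozygotes and 27.2 and 11.3 CPM in the homozygotes, so the highest and the second highest library came from different genotypes, as did the lowest and the second lowest. As a share of all counts, the genes took 0.00124% (exact Clopper-Pearson 95% interval 0.000985 to 0.00155) and 0.00267% (0.00236 to 0.00300) in heterozygotes 1 and 2. In homozygotes 1 and 2 they took 0.00288% (0.00248 to 0.00333) and 0.00130% (0.00108 to 0.00156). These intervals and the limits on counts of 0 cover counting error only. In bulk tissue, fewer neurons and less RNA per neuron cannot be told apart.

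**Figure D1:**
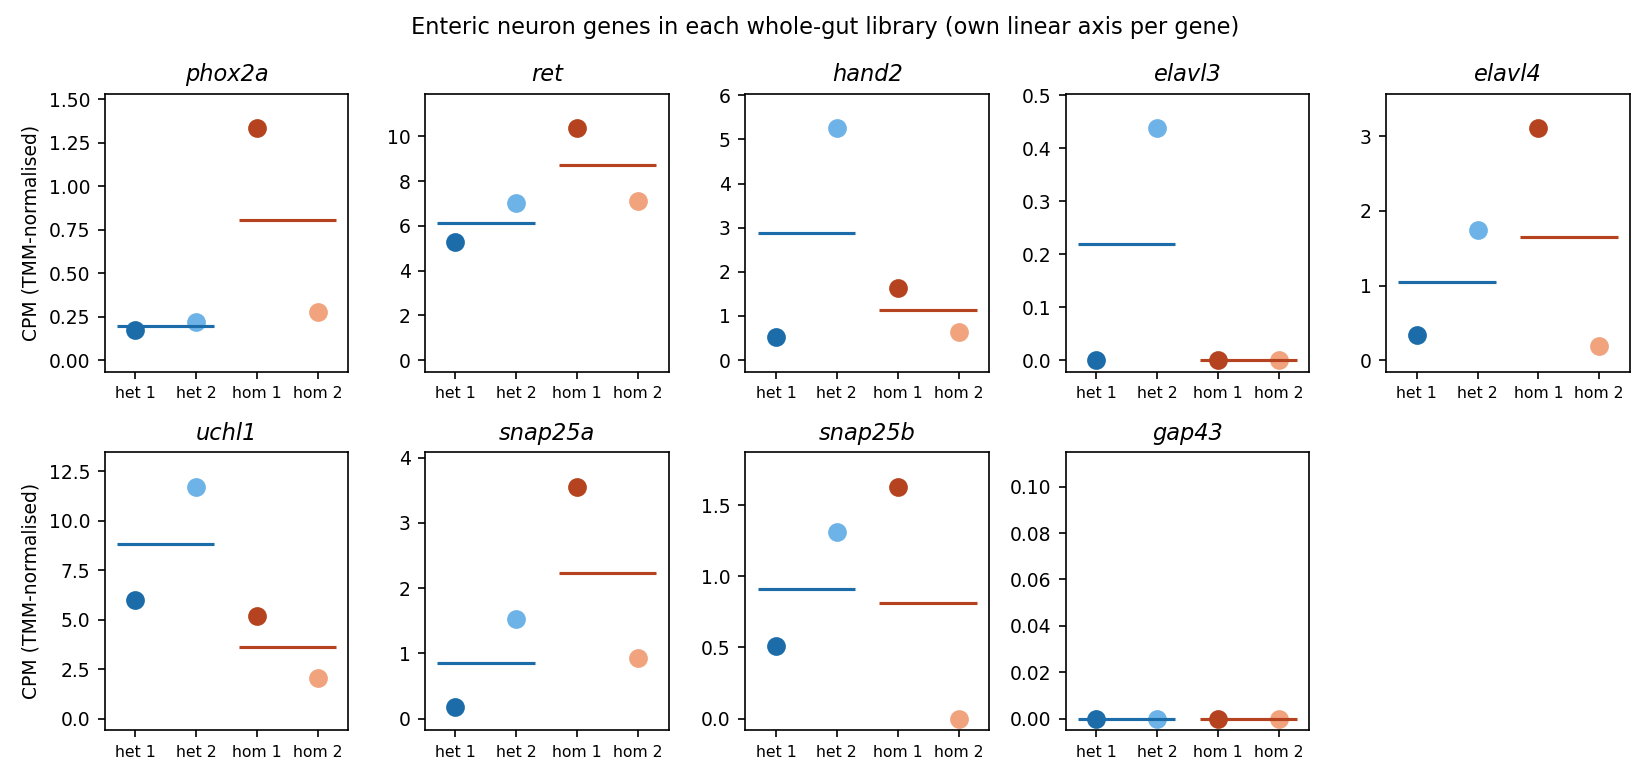
TMM-normalised CPM (y axis, linear, a separate scale for each gene) of 9 enteric neuron genes in each library (x axis: heterozygotes 1 and 2 in blue, homozygotes 1 and 2 in red); a point is a library and a line the mean of a genotype. For all 8 detected genes shown the highest point is heterozygote 2 or homozygote 1, and gap43 had 0 counts in every library.

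Levels were compared between genes per kilobase of annotated exon, as the mean over the 4 libraries. The neuronal ubiquitin hydrolase gene uchl1 was highest, at 5.72 ± 3.71 CPM per kilobase (SD, n = 4), and the GDNF receptor gene ret followed at 1.80 ± 0.514. uchl1 was above ret in 4 of 4 libraries, but the difference of their means, 3.92 CPM per kilobase, was close to the spread of uchl1 itself. Below them came hand2 at 1.23 ± 1.36, snap25a at 0.681 ± 0.640 and snap25b at 0.585 ± 0.503 CPM per kilobase. Lower levels per kilobase were those of elavl4 (0.225 ± 0.229), phox2a (0.130 ± 0.145) and elavl3 (0.0977 ± 0.195), and gap43 was at 0. From hand2 downward, no neighbours among these named genes differed by more than the spread of the higher gene over libraries. By mean CPM without length, ret (7.44) and uchl1 (6.22) lay near the median of the 13043 genes with any count, which was 7.54 CPM, while the other 8 members lay at or below the 29.7th percentile of those genes.

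**Figure D2:**
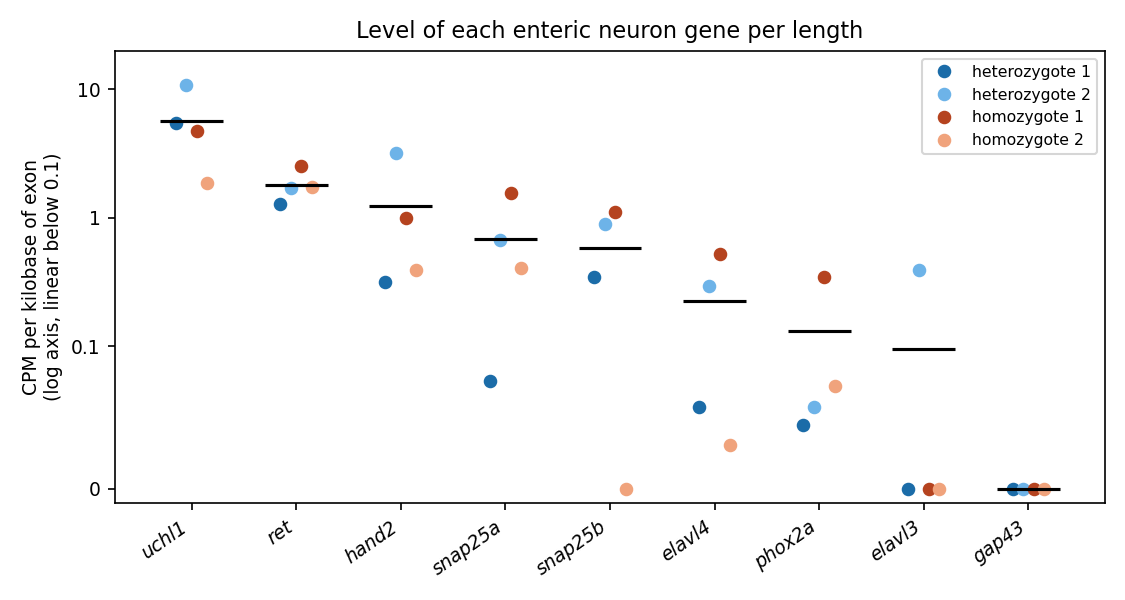
CPM per kilobase of exon (y axis, logarithmic above 0.1 and linear below) of 9 enteric neuron genes, ordered by mean; points are single libraries, coloured by animal, and black lines are means of the 4 libraries. The means fall from 5.72 for uchl1 to 0 for gap43.

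phox2a (chromosome 15, 46976208 to 46984966, plus strand, danRer10 as for all positions here), a transcription factor gene of autonomic neurons, had 1 and 2 counts in heterozygotes and 9 and 3 counts in homozygotes. Its levels were 0.171 and 0.219 CPM against 1.33 and 0.277 CPM, so that both homozygotes lay above both heterozygotes. The ratio of summed counts, homozygote over heterozygote and scaled to library size, was 3.41 with a 95% counting interval of 0.920 to 18.8. It was 1.38 without homozygote 1 and 6.66 without homozygote 2. With so few counts, homozygote 2 and the heterozygotes differed in phox2a by no more than 2 counts. phox2a did not pass the filter on low counts, so it was not tested, and the count ratio carries no replicate error.

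hand2 (chromosome 1, 37473974 to 37475834, minus strand), which acts in neuronal differentiation and also in visceral mesenchyme, had 3 and 48 counts in heterozygotes and 11 and 7 counts in homozygotes. The levels were 0.512 and 5.25 CPM against 1.63 and 0.646 CPM. Heterozygote 2 was high and heterozygote 1 was the lowest of all, so the genotypes overlapped. The log2 fold change was -1.38 ± 1.21 (SE, n = 2 per group, edgeR adjusted p = 0.767). Without heterozygote 2 it was 1.09, the opposite direction.

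ret (chromosome 13, 25454210 to 25502306, minus strand) was the best counted member, with 31 and 64 counts in heterozygotes and 70 and 77 counts in homozygotes. Its levels were 5.29 and 7.0 CPM in heterozygotes and 10.4 and 7.11 CPM in homozygotes. Both homozygotes lay above both heterozygotes, although homozygote 2 and heterozygote 2 were nearly level. The log2 fold change was 0.50 ± 0.47 (SE, n = 2 per group), with a 95% interval of -0.67 to 1.67 and an edgeR adjusted p of 0.782. Leaving out each library in turn gave 0.23 to 0.75, always above 0. The low end came without homozygote 1 and the high end without homozygote 2, and the value was 0.71 without heterozygote 2. Under the same settings the adjusted p ranged from 0.703 to 0.999.

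Of the ligands and receptors that act with Ret or in the parallel endothelin pathway, 7 of 16 listed genes were in the table and 0 of the 7 passed the filter. gdnfa, a gene for the Ret ligand GDNF, had 4 and 1 counts in heterozygotes and 7 and 11 counts in homozygotes. gfra1a, a gene for the GDNF co-receptor, had 2 and 3 counts in heterozygotes and 7 and 13 counts in homozygotes. ednrba, an endothelin receptor gene that in zebrafish acts in pigment cells, had 0 counts in both heterozygotes and 1 and 3 counts in homozygotes. In these 3 of 7 genes both homozygotes were above both heterozygotes, at levels too low to test. That held for 19.9% of all tested genes, a better counted set that includes none of the 7. The 3 genes were singled out after their values were seen. In the other 4 genes (gfra1b, gfra2a, gfra3 and gfra4a) the genotypes overlapped, at no more than 9 counts in any library.

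uchl1 (chromosome 1, 21957017 to 21961285, minus strand), whose protein is also known as PGP9.5 and labels nerve cell bodies and fibres, had 35 and 107 counts in heterozygotes and 35 and 22 counts in homozygotes. Levels were 5.97 and 11.7 CPM in heterozygotes and 5.18 and 2.03 CPM in homozygotes. Both homozygotes were below both heterozygotes, but homozygote 1 was close to heterozygote 1. The log2 fold change was -1.31 ± 0.68 (SE, n = 2 per group), a level 2.48-fold lower, with a 95% interval of -2.99 to 0.37 and an edgeR adjusted p of 0.699. The value was -0.75 without heterozygote 2, -0.78 without homozygote 2, -1.68 without heterozygote 1 and -2.09 without homozygote 1, so it stayed below 0 in all 4. The adjusted p under these 4 settings ranged from 0.449 to 0.999. The ratio of summed counts was 0.342, with a counting interval of 0.247 to 0.469 that leaves out the difference between animals.

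The Hu protein genes were sparse. elavl4 (chromosome 8, 15968442 to 16080278, plus strand) had 2 and 16 counts in heterozygotes and 21 and 2 counts in homozygotes. Its levels were 0.341 and 1.75 CPM against 3.11 and 0.185 CPM, with the highest and the lowest library in the same genotype. The log2 fold change was 0.56 ± 1.45 (SE, n = 2 per group, edgeR adjusted p = 0.936). It was -2.41 without homozygote 1, -0.11 without heterozygote 1, 1.52 without homozygote 2 and 2.16 without heterozygote 2, with adjusted p from 0.743 to 0.999. elavl3 (chromosome 3, 48850664 to 48865165, minus strand), a gene widely used as an early pan-neuronal marker in zebrafish, had 4 counts in heterozygote 2 and 0 counts in the other 3 libraries. Those 4 counts all lie in heterozygote 2, and elavl3 missed the count filter, so no fold change is given. Its ratio of summed counts was 0, with a counting interval of 0 to 1.29. The ubiquitous Hu gene elavl1 (elavl1a in current naming) had 289 to 421 counts per library.

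The growth-cone gene gap43 had 0 counts in all 4 libraries, which allows a level of up to 0.0921 CPM over the 4 libraries together. Its annotated copy lies on an unplaced scaffold of danRer10 and starts at base 1 of it (1 to 14231, plus strand). The gene model may be incomplete there, so the 0 and its limit hold for the annotated exons and may not measure gap43 expression.

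The paired genes for Snap25, a protein that brings vesicle and cell membranes together in neurons and endocrine cells, had similar levels per length. snap25a (chromosome 20, 35010190 to 35053164, plus strand) had 1 and 14 counts in heterozygotes and 24 and 10 counts in homozygotes, or 0.171 and 1.53 CPM against 3.55 and 0.923 CPM. snap25b (chromosome 17, 12143935 to 12231154, minus strand) had 3 and 12 counts in heterozygotes and 11 and 0 counts in homozygotes, or 0.512 and 1.31 CPM against 1.63 and 0 CPM. In both, homozygote 1 was highest and heterozygote 2 second, and the genotypes overlapped. The other libraries came in opposite order, with heterozygote 1 lowest for snap25a and homozygote 2 for snap25b. Their values between genotypes, given next, also point in opposite directions. Reads that fit both copies could be lost or split in such counts. snap25a had a log2 fold change of 1.29 ± 1.22 (SE, n = 2 per group, edgeR adjusted p = 0.782), which ranged from 0.11 without homozygote 1 to 3.56 without heterozygote 2; it was 0.55 without heterozygote 1 and 1.99 without homozygote 2. For snap25b, which missed the filter, the ratio of summed counts was 0.625 (0.260 to 1.46). It was 0 without homozygote 1, 0.476 without heterozygote 1, 1.22 without heterozygote 2 and 1.63 without homozygote 2, so its direction rests on single libraries.

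**Figure D3:**
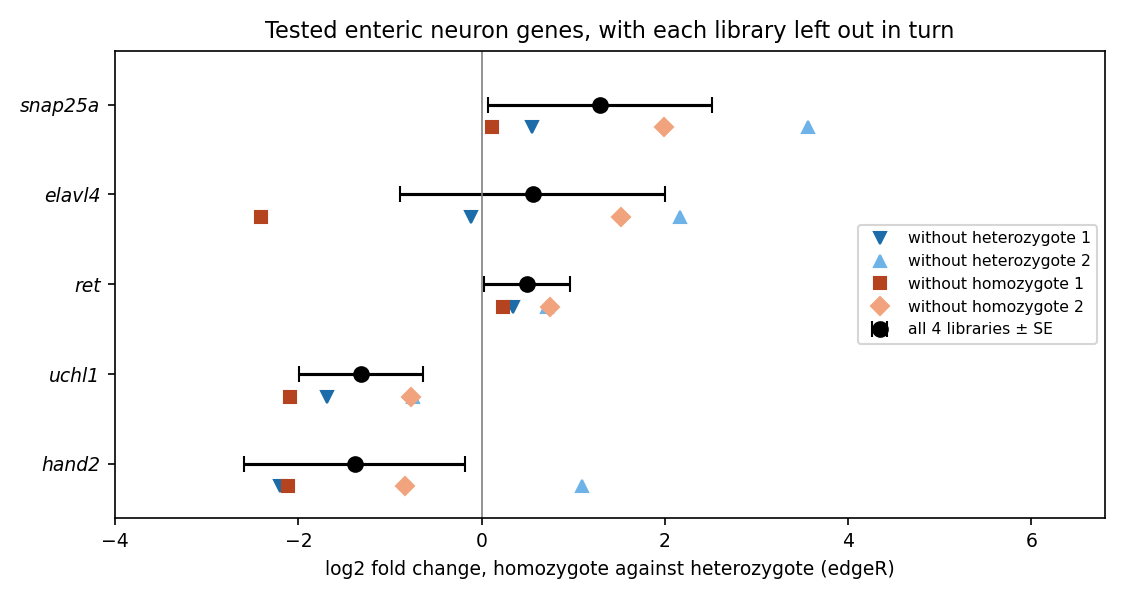
Log2 fold change of homozygotes against heterozygotes (x axis) for the 5 enteric neuron genes that passed the count filter; black points with bars are the value and SE from all 4 libraries, and coloured symbols are the values with 1 library left out. ret and snap25a stay above 0 and uchl1 below 0, whereas elavl4 spans -2.41 to 2.16 and hand2 -2.20 to 1.09.

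With p-values from the edgeR quasi-likelihood fit adjusted over 9701 genes by Benjamini-Hochberg, 0 of the 5 tested members were called, where 0% of all tested genes were called (0 genes). At an unadjusted p under 0.05 it was 0 of 5 members, beside 6.47% of all tested genes (628 genes). DESeq2's Wald test called 58 genes, 0.742% of the 7820 to which it gave an adjusted p. It gave ret an adjusted p of 0.917 and uchl1 0.707, within the ranges over all alternatives of 0.703 to 0.999 and 0.449 to 0.999, and it gave none to hand2, elavl4 or snap25a. Genotypes did not overlap for 2 of the 5 tested members, ret (above) and uchl1 (below), beside 39.2% of all tested genes (19.9% above and 19.3% below). With 2 fish per group an exact two-sided permutation test of a single value cannot give a p below 0.333. Over the 9 members with any count, fitted without a filter, 4 were higher and 5 lower in homozygotes with a median log2 fold change of -0.22. Over all 13043 genes with any count the median was -0.10. With elavl3 left out, since its fitted value depends on the prior count, the median was 0.15 over 8 members. With libraries left out instead, the median over all members with a count was 0.90 without heterozygote 2 (8 members) and -2.09 without homozygote 1 (9 members), so no direction can be given for the members together.

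The libraries in which the members were highest came from both genotypes. Of the 9 detected genes, 4 were highest in heterozygote 2 and 5 in homozygote 1, and 0 in the other 2 libraries. Over all tested genes, 26.9% were highest in heterozygote 2 and 18.4% in homozygote 1. Of the 5 tested members, 3 were lowest in heterozygote 1 and 2 in homozygote 2, where 29.5% and 27.9% of all tested genes were lowest. So few genes cannot show whether this departs from the background. By total counts, heterozygote 2 and homozygote 2 were the deepest libraries.

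Summed genes of synaptic vesicle release and of the axon were also higher in heterozygote 2 and homozygote 1 than in the other 2 libraries. The sums of other neuronal lists did not share this pattern. Transmitter and neuropeptide genes summed to 206 and 136 CPM in heterozygotes 1 and 2 and to 231 and 260 CPM in homozygotes 1 and 2. A large part of that sum was ddc alone, at 161 and 53.8 CPM in heterozygotes and 105 and 125 CPM in homozygotes. The rest of the sum was also higher in both homozygotes than in both heterozygotes, so the pattern was absent without ddc too. Single genes of the list went both ways. vip2 (vipb in current naming) had 23 and 284 counts against 171 and 62, higher in heterozygote 2 and homozygote 1. penka had 66 and 104 against 316 and 415, higher in both homozygotes. The Ret and endothelin pathway genes summed to 1.02 and 2.41 CPM against 3.11 and 3.32 CPM. Genes of synaptic vesicle release summed to 4.95 and 17.0 CPM in heterozygotes 1 and 2 and to 15.3 and 7.20 CPM in homozygotes 1 and 2. Of 22 found, 3 were tested, with 0 called. syt1a, a gene for the vesicle calcium sensor synaptotagmin, had 7 and 33 counts against 33 and 9, and vamp2, the vesicle partner of Snap25, had 2 and 14 against 14 and 6. rab3aa, a gene for a vesicle GTPase, had levels of 1.88 and 4.16 CPM against 1.78 and 1.38 CPM (11 and 38 counts against 12 and 15, log2 fold change -0.94 ± 0.77, SE, edgeR adjusted p = 0.752).

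Genes of the axon, growth cone and neuronal cytoskeleton summed to 15.7 and 58.1 CPM in heterozygotes and 41.9 and 14.4 CPM in homozygotes. Of 26 found, 8 were tested: 3 were higher, 5 lower and 0 called, with a median log2 fold change of -0.37 beside -0.05 over all tested genes. The 3 with the smallest unadjusted p were tubb5, a neuronal tubulin gene, at -0.94 ± 0.81, dpysl2b at -1.09 ± 0.97 and dpysl3 at -0.71 ± 0.69 (SE), the last pair encoding collapsin response proteins of growing axons. In all 3 the count was highest in heterozygote 2.

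Transcription factor genes of enteric precursors and neurons, apart from the members, showed less of this pattern when summed, at 64.5 and 73.8 CPM in heterozygotes and 67.7 and 73.9 CPM in homozygotes. Several of the more abundant ones are also used by other gut cells. Of these sums, tbx3a alone made up 28.3 and 16.5 CPM in heterozygotes and 19.0 and 54.2 CPM in homozygotes. The sum in homozygote 2 was thus mostly tbx3a, and the sums say little about the other genes of the list. Of 20 found, 7 were tested, with 4 higher, 3 lower and 0 called. tbx2b, a T-box gene, had 49 and 81 counts against 23 and 24 (-1.62 ± 0.52, SE, edgeR adjusted p = 0.699). tbx3a was at 0.71 ± 0.59 and zeb2a, whose human counterpart is mutated in a syndrome with missing gut ganglia, at -0.65 ± 0.59.

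Of 31 genes found for transmitter enzymes, transporters and neuropeptides, 11 were tested, with 8 higher, 3 lower and 0 called (median log2 fold change 0.46). The 3 with the smallest unadjusted p, which that choice itself favours not to overlap, had both homozygotes above both heterozygotes, beside 19.9% of all tested genes. They were penka, an enkephalin precursor gene, at 1.91 ± 0.34 (66 and 104 counts against 316 and 415), slc6a4a, a serotonin transporter gene, at 2.49 ± 0.56 (32 and 66 against 136 and 557), and adcyap1a, a PACAP precursor gene, at 1.22 ± 0.48 (SE; 23 and 30 against 51 and 100). Their edgeR adjusted p was 0.699 in each case. Epithelial cells of the gut are also known to express serotonin transporters and some of these peptides. Of 10 tested epithelial genes 7 were higher, 3 lower and 0 called. Those with the smallest unadjusted p were slc15a1b, mep1b and cdx1b, at 2.08 ± 0.57, 1.80 ± 0.50 and 1.98 ± 0.63 (SE, edgeR adjusted p = 0.699 each), whereas fabp2 was at -0.12 ± 1.07 and vil1 at 0.15 ± 0.75, and their part in these values was not tested.

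Smooth muscle genes mark the muscle layers between which enteric neurons lie. Like the sum of the 10 neuron genes, their sum was higher in heterozygote 2 and homozygote 1 than in the other libraries. It differed more widely between animals, and the highest and the lowest library were not the same for both sums. Smooth muscle genes summed to 325 and 1778 CPM in heterozygotes 1 and 2 and to 2905 and 424 CPM in homozygotes 1 and 2. Relative to their lowest library, heterozygote 1, smooth muscle genes reached 8.93-fold in homozygote 1 and 5.47-fold in heterozygote 2. The 10 neuron genes, lowest in homozygote 2, reached 2.42-fold and 2.69-fold of that library. The neuron sum rests mostly on ret and uchl1, which made up 83.5% and 61.7% of its counts in heterozygotes 1 and 2. In homozygotes 1 and 2 they made up 57.1% and 81.1%, so the sum says little about the sparser members. All 10 smooth muscle genes found had counts, and 8 were tested, with 6 higher, 2 lower and 0 called. tagln, a gene for the actin-binding protein transgelin, had 473 and 3354 counts in the heterozygous against 5652 and 776 in the homozygous fish, and myl9a, a myosin light chain gene, had 211 and 1149 against 1717 and 371. tpm2, a tropomyosin gene, was highest in heterozygote 2, at 38 and 406 against 117 and 161. Per 100 CPM of smooth muscle genes, the neuron genes had 4.15 and 1.70 CPM in heterozygotes and 0.938 and 2.65 CPM in homozygotes, and the genotypes overlapped on this scale too. The part of muscle content in the neuron gene values was not tested.

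**Figure D4:**
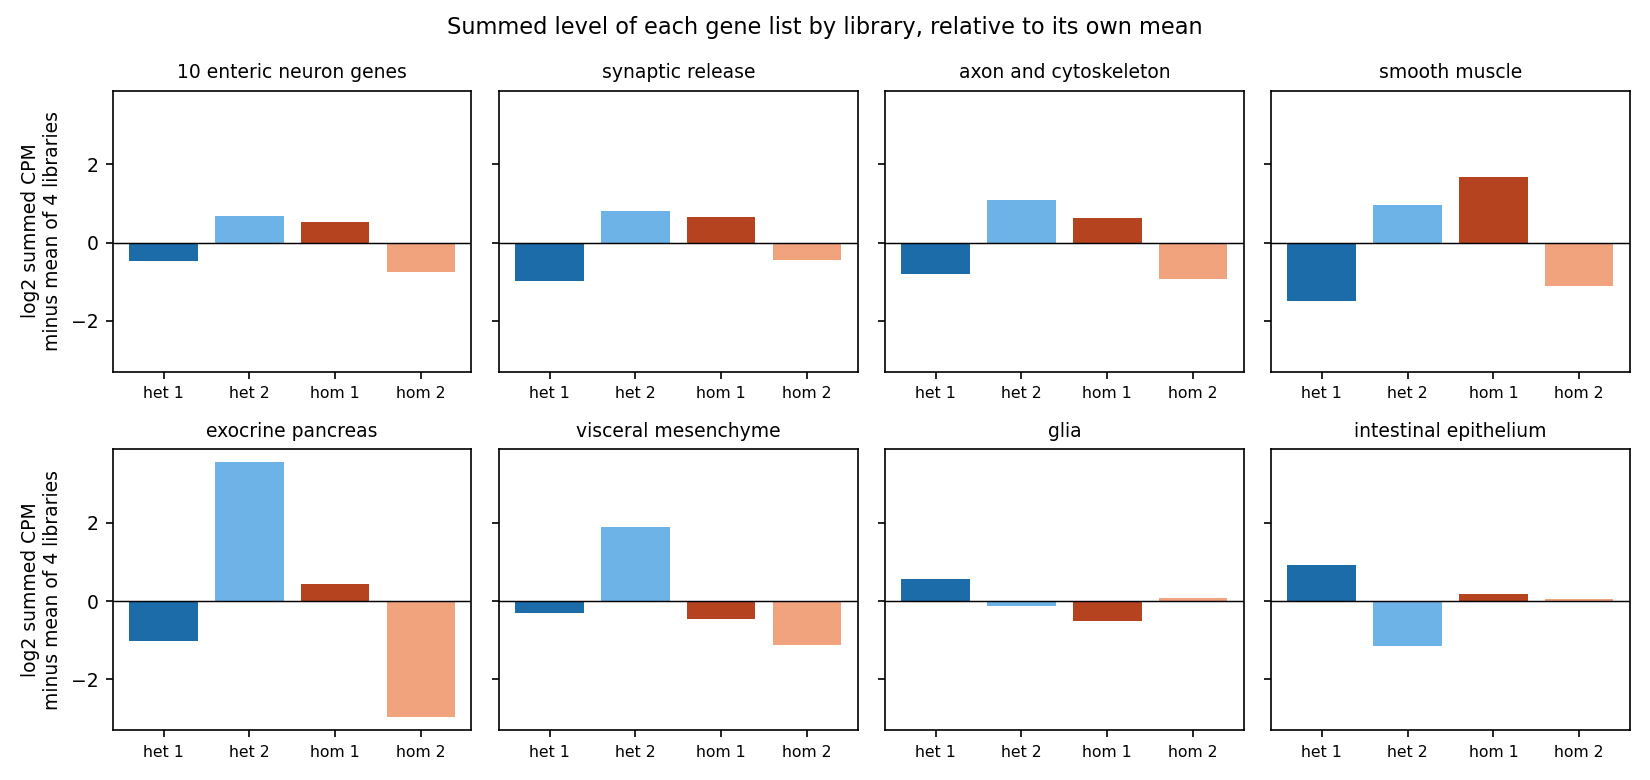
Log2 summed CPM of 8 gene lists in each library (y axis), minus the list's own mean over the 4 libraries; bars are heterozygotes 1 and 2 (blue) and homozygotes 1 and 2 (red). The neuron genes, the synaptic and axon lists, smooth muscle and exocrine pancreas are above their mean in heterozygote 2 and homozygote 1. Pancreas and mesenchyme genes are highest in heterozygote 2 and epithelial genes lowest there. The lists of enteric transcription factors, of transmitter genes and of the Ret and endothelin pathways are not shown.

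Heterozygote 2, the highest library for uchl1, hand2 and elavl3, also stood apart by genes of other tissues. Exocrine pancreas genes (18 of 18 found with counts) summed to 14310 CPM in heterozygote 1 and 336973 CPM in heterozygote 2. In homozygotes 1 and 2 they summed to 38731 and 3688 CPM, so the libraries had the same order as in the neuron gene sum. Endocrine islet genes (18 of 19 with counts) summed to 1300 CPM in heterozygote 2 and to 57.5 to 90.8 CPM elsewhere. The insulin gene ins was counted 89 and 7031 times in the heterozygous fish and 0 times in either homozygote. insb had 0 counts in every library. Genes of gut enteroendocrine cells, which share Snap25 and other secretory proteins with neurons, summed to 43.7 and 107 CPM in heterozygotes and 33.0 and 42.5 CPM in homozygotes (10 of 11 with counts). Visceral mesenchyme genes, the other tissue that uses hand2, summed to 243 and 1106 CPM against 221 and 139 CPM (9 of 10 with counts, pdgfrb at 0 throughout). Of 8 tested, 2 were higher, 6 lower and 0 called. The smallest unadjusted p were those of the collagen genes col1a1a, col1a2 and col1a1b at -2.01 ± 0.81, -1.91 ± 0.77 and -2.01 ± 0.82 (SE, edgeR adjusted p = 0.699 each), while foxf1, a mesenchymal transcription factor gene, was at 0.28 ± 0.59. With pancreas and islet genes left out before scaling, the values were -1.28 for uchl1 and -1.35 for hand2, near those with all genes. Leaving them out changes the scaling and the set of tested genes but not the members' counts, so it cannot show what these tissues add. The part of these tissues in the member values was not tested.

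Genes of glia, those of myelinating glia included, differed among themselves. Their summed level was 698 and 431 CPM in heterozygotes and 330 and 495 CPM in homozygotes, but glula, a glutamine synthetase gene used by many cells, made up most of it, with 1575 to 4324 counts per library. Of 14 found, 11 had counts, and gfap, a gene used as a glial marker, had 0 in every library. For sox10, the neural crest and glial factor, there were 0 and 14 counts in heterozygotes and 4 and 1 counts in homozygotes, and fabp7a, a fatty acid binding protein gene of glia, had 59 and 318 against 180 and 231. By CPM both were highest in heterozygote 2 and second highest in homozygote 1. Of 7 tested, 5 were higher, 2 lower and 0 called. plp1a, a myelin protein gene, had 14 and 5 counts against 21 and 82 (1.90 ± 0.94, SE), mbpb, a myelin basic protein gene, 328 and 274 against 401 and 661 (0.49 ± 0.42), and fabp7b, a paralog of fabp7a, 20 and 36 against 2 and 6 (-3.03 ± 0.81). The edgeR adjusted p was 0.699, 0.766 and 0.699 in that order. The myelin protein genes plp1b and mpz missed the count filter and were lower in homozygotes by summed counts, with both highest in heterozygote 2. plp1b had 8 and 55 counts against 8 and 9 (ratio of summed counts 0.230, counting interval 0.126 to 0.398). mpz had 0 and 17 against 2 and 1 (0.150, 0.0283 to 0.520).

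Broadly expressed or other relatives of the members were more abundant and, as a sum, varied less between animals, at 322 and 223 CPM in heterozygotes and 196 and 221 CPM in homozygotes. Of 9 found, 7 were tested, with 3 higher, 4 lower and 0 called. uchl5 and uchl3, ubiquitin hydrolase genes of general use, were at -0.65 ± 0.34 and -0.60 ± 0.53, and elavl1 was at -0.40 ± 0.38 (SE, edgeR adjusted p = 0.699, 0.769 and 0.778).

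Signals known in mice to pass between enteric neurons and muscle-layer macrophages were the last group. Of 12 genes found 7 were tested, with 1 higher, 6 lower and 0 called (median log2 fold change -0.51). csf1ra, a gene for the receptor of the macrophage growth factor Csf1, had 10 and 14 counts in heterozygotes and 1 and 3 counts in homozygotes (-2.79 ± 1.03, SE). The genes for Bmp2, which in mice macrophages make and enteric neurons sense, were at -0.92 ± 0.50 for bmp2b (49 and 114 counts against 47 and 45) and -0.51 ± 0.63 for bmp2a (27 and 104 against 49 and 44). The edgeR adjusted p was 0.699, 0.699 and 0.833. Among the genes for Csf1, which neurons make in mice, csf1a had 0 and 26 counts in heterozygotes and 10 and 5 counts in homozygotes, again highest in heterozygote 2. bdnf, of the same list, missed the count filter and went the other way, with 0 and 7 counts against 15 and 9 (ratio of summed counts 2.92, counting interval 1.22 to 8.03).

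Among 9670 other tested genes with a mean of at least 1 CPM, those whose centred log2 CPM over the 4 libraries lay closest to the mean profile of the 5 tested members were zgc:153215, caskb, arfip2a, adam10b and rgs3a. Their distances were 0.0906 to 0.236 log2 units, against a median of 1.81 over all ranked genes. caskb, a gene for a synaptic scaffold kinase, was the second closest, at 1.37 and 5.25 CPM in heterozygotes and 4.74 and 1.48 CPM in homozygotes. Likeness over 4 libraries is a description only.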

How the data were processed

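Per the file headers, the authors' deposited counts are read pairs per gene from featureCounts 1.5.2 (Subread), counted on the reverse strand (setting 2) over UCSC genes of danRer10. No source used here names the aligner. DESeq2 and R 3.3.1 appear in the submitters' notes. The authors' deposited table of 76 genes, with log2 fold changes and p-values, holds 0 of the 10 members by name or gene ID and was not used further.

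The edgeR function filterByExpr (minimum count 10, total 15) kept 9701 genes, 5 of them members. They were scaled by TMM and compared by the edgeR 4.0.16 (R 4.3.3) quasi-likelihood F test with genotype as the only term. Its p-values were Benjamini-Hochberg adjusted over all tested genes, and genes were called at 0.05. The procedure was also run on simulated counts with the same spread for every gene. That run does not show what changes it could detect in the members here. SEs are those implied by F, and log2 CPM profiles use a prior count of 2. Ratios of summed counts have exact 95% intervals. p-values and SEs rest on the spread between 2 fish per group, which edgeR moderates for each gene with the spread of the other tested genes.

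The members and 15 context lists were chosen with earlier results of these data known. The values of 1 member enter sums, counts and medians but are not reported here singly. Of 275 context entries, 214 matched by name, 10 by synonym (GRCz12tu names), 1 repeated another and 50 did not match. Named are the members, irf8, per list up to 3 genes of smallest unadjusted p, and the 5 closest profiles. Markers at 0, csf1a, bdnf, sox10, fabp7a, glula, plp1b, mpz, fabp2, vil1, foxf1, ano1, kitb, etv1, ddc, vip2 and the Ret partners were added after values were seen. Alternatives were DESeq2 1.42.0 (size factors, Wald test), other count filters, a replicate block, pancreas genes left out, each library left out, an adjusted p of 0.1 and the newer edgeR dispersion.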

Additional observations from a re-analysis of the deposited data

How the results depend on the processing

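The number of genes called, 0 by edgeR, rose to 58 with DESeq2's Wald test and to 45 without heterozygote 1; without each library in turn it ranged from 0 to 45, and with DESeq2 size factors, other count filters, an adjusted p of 0.1, the newer dispersion or pancreas and islet genes left out it was 0. No member was called under any alternative run. Of 55 values of single tested members under alternatives, 52 kept their direction and 3 reversed: elavl4 at -0.11 without heterozygote 1 and -2.41 without homozygote 1, and hand2 at 1.09 without heterozygote 2. Among the 52 kept, elavl4 was at 0.00123 with the replicate number as a block, which gives it no direction there. With 1 library left out, elavl4 ranged from -2.41 to 2.16 and hand2 from -2.20 to 1.09. The members' median log2 fold change of -0.22 ranged from -2.09 to 0.90 with 1 library left out, beyond the spread of 1.11 between library medians within a genotype at both ends (without homozygote 1 and without heterozygote 2). It was 0.51 over the 5 members with a mean of at least 1 CPM. Replicate numbers are shared by label only, with a correlation of 0.06 between genotypes of replicate 1 minus 2; with the replicate number as a block 0 genes were called, and the median was -0.85. Depth limits 4 members with counts, each at 26 or fewer over the 4 libraries.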

Other observations

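Some neuronal genes were nearly confined to heterozygote 2 and homozygote 1; they were singled out after their values were seen. stmn2a, a gene for a microtubule regulator of growing axons, had 0 and 24 counts in heterozygotes and 25 and 0 counts in homozygotes. Its paralog stmn2b had 1 and 19 against 23 and 1, and vamp1, a vesicle fusion gene, had 0 and 12 against 9 and 0. The peptide gene adcyap1b had 2 and 17 against 20 and 3, and tph1b, a serotonin synthesis gene, 3 and 26 against 33 and 2.

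Other transmitter genes were high in heterozygote 2 and not in homozygote 1, also singled out afterwards. nos1, the gene for neuronal nitric oxide synthase, had 1 and 35 counts in heterozygotes and 2 and 2 counts in homozygotes. pdyn, a prodynorphin gene, had 0 and 23 against 0 and 0, and tac1, a tachykinin precursor gene, 0 and 23 against 2 and 5. The genotypes overlapped for nos1, pdyn and tac1, and none passed the count filter.

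Genes listed for interstitial cells of Cajal, the pacemaker cells beside enteric nerves, and for their Kit signal had 5 of 5 members with counts. Of these, kitb had 1 count and etv1 7 counts over the 4 libraries. Of the 2 tested, kitlga, a gene for the ligand of the Kit receptor, was at 0.88 ± 0.46 (59 and 97 counts against 86 and 274) and kita, a Kit receptor gene, at 0.32 ± 0.73 (SE; 18 and 34 against 14 and 69), with edgeR adjusted p of 0.699 and 0.925. ano1, a chloride channel gene that marks these cells, was not tested and went the other way, with 4 and 83 counts against 8 and 6 (ratio of summed counts 0.137, counting interval 0.0720 to 0.243).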
